A study of Mus musculus with 6 samples.

Results

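The genes described here encode the proteins of the cytosolic ribosome, measured in whole prefrontal cortex of BTBR and C57BL/6J mice. Members were the non-control probes of the array whose gene name in the scanner files begins with Rpl or Rps and a digit, or is Rplp0, Rplp1, Rplp2 or Rpsa. Names beginning with Rps6k, which are kinases, were left out. The rule took 147 of the 41174 non-control probes, under 86 of the 27373 gene or transcript names on the array. Of these, 84 probes carry large-subunit names and 63 carry small-subunit names. Most are ribosomal proteins proper (76 large and 58 small probes). The rest are paralogues (8 large and 2 small probes, of Rpl3l, Rpl7l1, Rpl22l1, Rpl36al, Rpl39l, Rps27l and Rps4y2), 1 probe of the pseudogene Rps15a-ps4 and 2 probes of Rps19bp1, which binds Rps19 and is no part of the ribosome. Rps4y2 is a name of the array's design. Its current symbol is Rps4l, and RefSeq lists it as a transcribed pseudogene.

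The ribosome reads messenger RNA and joins amino acids into protein, and it is built of a large and a small subunit, each a core of ribosomal RNA with its own set of proteins. The proteins are needed in balanced amounts, and many of their messenger RNAs begin with a run of pyrimidines, the 5' terminal oligopyrimidine tract, through which mTOR signalling controls their translation. In neurons these messenger RNAs are also found in dendrites and axons, where proteins are made locally.

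The study compared 3 BTBR T+ Itpr3tf/J mice with 3 C57BL/6J mice, 1 array per mouse. BTBR is an inbred strain used as a model of autism. All mice were males of 5 months that received no drug, and the labels give an RNA integrity number of 9 and 0.5 µg of input RNA labelled with Cy3. The controls are labelled wild type. The labels name C57BL/6J as the strain background of both groups, BTBR included, and the sample titles were used to tell them apart. The strains differ across the whole genome, so this design cannot assign a difference between them to a single allele.

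A level here is the log2 of a probe's background-subtracted signal relative to the 75th percentile of its array, and a difference is BTBR minus C57BL/6J. Probes were kept if their signal cleared the background in 3 or more of the 6 mice, whatever the strain, which 143 members did, 140 of them in all 6. The 4 that did not enter, among them 1 probe each of Rpl39l, Rps19 and Rps2, failed this in all 6 mice. Members were compared by limma over all 30011 probes entered, with Benjamini-Hochberg adjustment and a threshold of 0.05. The design text gives 3 mice per strain, so the p-values measure the spread between these mice. Precision is limited by having 3 arrays per strain.

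The sequences that the results below turn on are given 5' to 3', as on the array, with positions in mm9 as the scanner files give them. The first set shows a 30-base stretch of each of 6 probes that were lower in BTBR. Capitals mark AATAAA, the common polyadenylation signal, searched on the probe's own strand.
Rpl14, chr9:120483719-120483748, plus strand: gttaaccctaacaAATAAAtttcccaccaa
Rps13, chr7:123475037-123475066, minus strand: taaatgctgttgtgtgcacaagcAATAAAa
Rpsa, chr9:120040997-120041026, plus strand: gaacaaagttaatgctaaaaagttaatgcc
Rps6, chr4:86483199-86483228, minus strand: tctacagtggatttaaatggtctgaatccc
Rps4y2, chr6:148304048-148304077, plus strand: aggggcgtttacgtttgtttatacttaaaa
Rpl5, chr5:108337918-108337947, plus strand: ctaaaagccattccacagttgactccatct
AATAAA stood in 19 of the 147 member probes (12.9%) and in 4.78% of all non-control probes. The 19 member probes with it had 2 of the 7 calls described below (10.5%, against 6.57% of all entered probes with it), both in this set (Rpl14 and Rps13), and 5 calls fell among the 124 entered members without it.

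The second set is the 4 probes of Rpl29, of which 1 was lower in BTBR and 3 were not. They are ordered along chr9, plus strand, and capitals mark the bases that a probe's position shares with its neighbour.
A_51_P400137, bases 11 to 60, chr9:106331969-106332651: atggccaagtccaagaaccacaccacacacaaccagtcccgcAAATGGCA
A_52_P326158 (lower in BTBR), chr9:106332644-106332703: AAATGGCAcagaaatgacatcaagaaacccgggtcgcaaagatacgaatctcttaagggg
A_52_P505977, chr9:106333409-106333468: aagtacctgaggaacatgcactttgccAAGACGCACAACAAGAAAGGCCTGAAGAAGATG
A_52_P217069, chr9:106333436-106333495: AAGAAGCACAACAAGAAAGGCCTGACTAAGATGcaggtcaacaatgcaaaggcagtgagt
A_51_P400137 covers 683 bases of the genome with its 60 bases, so it is placed across a gap, and the positions given are those of the whole probe. It shares only 8 bases with the probe that was lower. The last 2 probes overlap by 33 bases in position but not letter for letter. Counted from 1 at the 5' end of A_52_P217069, the other probe reads A5C, C26A and T27G.

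Ribosomal protein probes passed the test about as often as probes of the whole array, and those that passed were lower in BTBR. Of the 143 entered members, 7 passed the test (4.90%), and all 7 were lower in BTBR. Over all entered probes 5.44% passed in either direction, 3.25% lower and 2.19% higher. This comparison is not matched for level, since most members were bright and most probes of the array were dim. Above a mean level of 4, 1 of 92 members was called (1.09%), against 0.995% of all 1307 such probes. Below 0, 3 of 28 members were called, against 6.4% of all 19745 such probes. The calls were 3 of 83 large-subunit probes (3.61%), of Rpl14, Rpl29 and Rpl5, and 4 of 60 small-subunit probes (6.67%), of Rpsa, Rps6, Rps4y2 and Rps13. The called Rps6 probe entered through its C57BL/6J arrays alone. At 125 of the 143 members the difference was within 0.3 either way, as at 21467 of all 30011 entered probes. Among probes with a mean level above 4 this held at 89 of 92 members and 1200 of all 1307. Of the 136 members that did not pass, the mean was higher in BTBR at 118 and lower at 18, with a median difference of 0.13, as the plot of differences by gene shows.

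**Figure D1:**
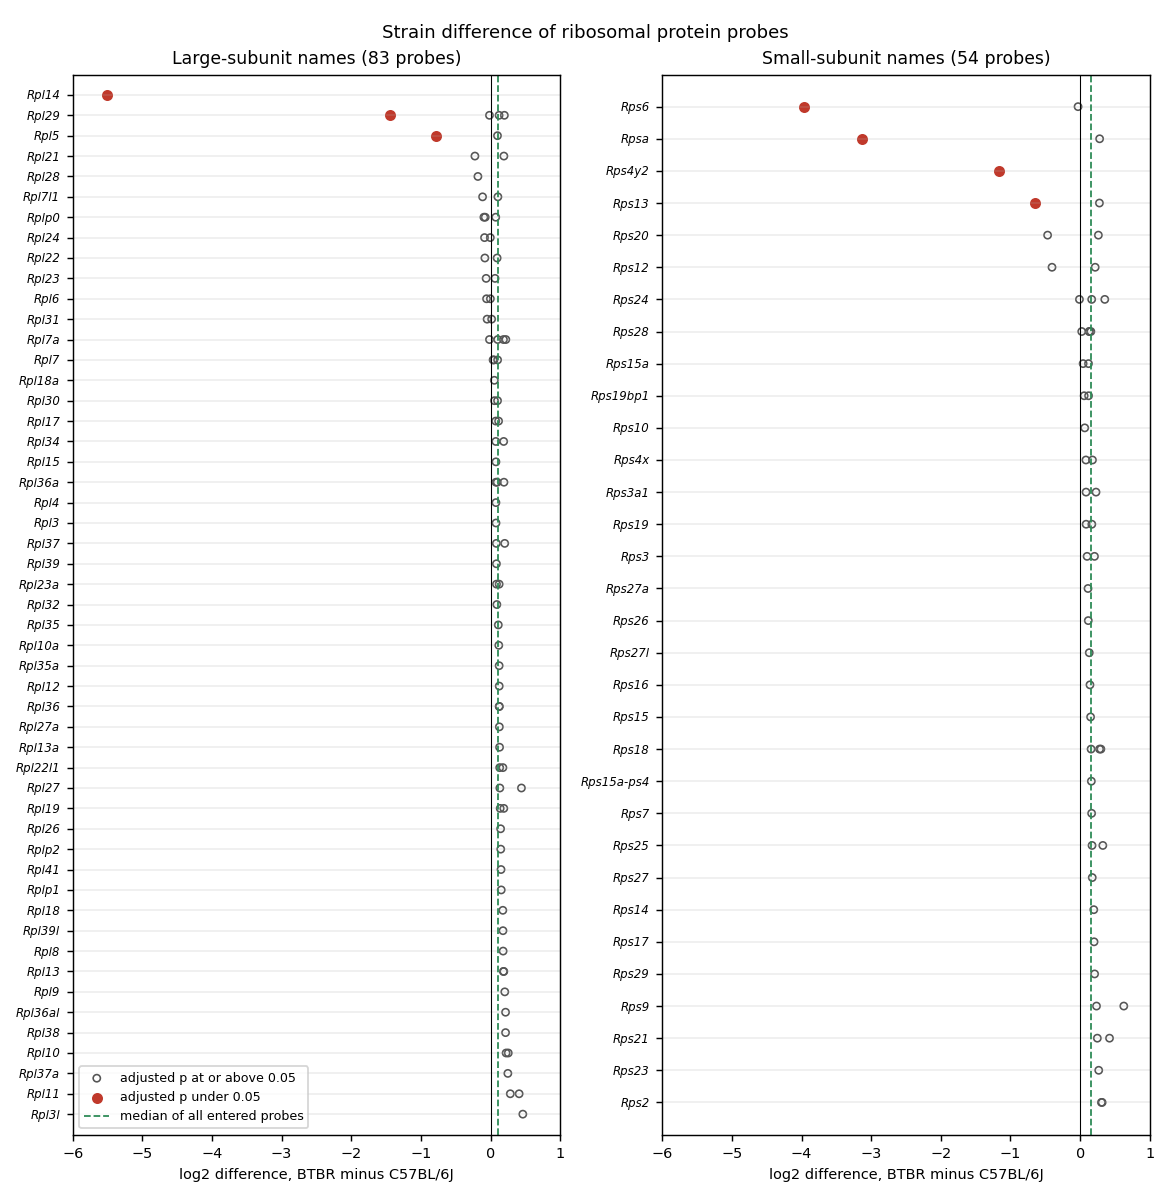
Log2 difference (BTBR minus C57BL/6J, x axis) of 137 of the 143 entered ribosomal protein probes, 1 row per gene name and 1 point per probe, with 83 large-subunit probes on the left and 54 of the 60 small-subunit probes on the right. The 7 filled points passed the limma test and all lie below 0; open points cluster near the dashed medians of all entered probes, 0.11 for the large and 0.16 for the small subunit.

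Rpl14 encodes a large-subunit protein and showed the largest difference of the family. Its only probe, chr9:120483689-120483748, read -5.12, -4.80 and -5.23 in the 3 BTBR mice and 0.57, 0.40 and 0.40 in the 3 C57BL/6J mice. The strains lay far apart, with all mice of a strain close together. BTBR was 45.4-fold lower (log2 difference -5.51 ± 0.15 SE, limma adjusted p = 2.92e-05). The probe was well above background in every mouse, so the BTBR signal was dim but measurable. The difference was -3.80 with normexp and -2.94 in the authors' deposited values, and it passed the test in both. Normexp is a background correction that models signal and noise together. Here it took each spot's mean signal and background median and added an offset of 50, which lifts low signals. With no second Rpl14 probe on the array, no other position of the gene was measured.

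Rpl29 encodes a lysine-rich large-subunit protein, and here the probes of 1 gene disagreed. At A_52_P326158 the BTBR mice read 1.03, 1.16 and 0.71 and the C57BL/6J mice 2.37, 2.60 and 2.24. Every BTBR mouse was below every C57BL/6J mouse, a 2.72-fold difference (log2 -1.44 ± 0.16 SE, adjusted p = 0.00437). The probe upstream, A_51_P400137, read 5.28, 5.23 and 5.20 in BTBR and 5.19, 5.36 and 5.21 in C57BL/6J, with the strains overlapping (log2 difference -0.02, adjusted p = 0.968). The 2 probes downstream also overlapped between strains, with differences of 0.12 (adjusted p = 0.791) and 0.20 (adjusted p = 0.651). The call therefore belonged to a single 60-base stretch, the second sequence of the set above. It was lost with normexp (log2 -1.35, adjusted p = 0.0625).

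Rpl5 carries 5S ribosomal RNA into the large subunit together with Rpl11. At A_52_P82305 (chr5:108337918-108337977) the BTBR mice read 1.66, 2.01 and 1.88 and the C57BL/6J mice 2.78, 2.58 and 2.55. The strains did not overlap, and BTBR was 1.72-fold lower (log2 -0.79 ± 0.13 SE, adjusted p = 0.0225). The other Rpl5 probe, placed upstream across a gap (chr5:108332860-108333767), read 6.02, 6.03 and 5.86 in BTBR and 5.72, 5.95 and 5.95 in C57BL/6J. There the strains overlapped, with a difference of 0.10 (adjusted p = 0.771). Normexp ended the call at the first probe (adjusted p = 0.11), as did leaving out C57BL/6J 1, C57BL/6J 2, BTBR 1 or BTBR 3, with values of 0.0548 to 0.0971. Its partner Rpl11 was higher in every BTBR mouse than in any C57BL/6J mouse at both of its probes, by 0.28 and 0.41, and neither passed the test (adjusted p = 0.283 and 0.179).

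Rpsa, a small-subunit protein also known as the laminin receptor, gave opposite signs at its 2 probes. At A_52_P372165 (chr9:120040967-120041026) the BTBR mice read -4.88, -5.34 and -5.10 and the C57BL/6J mice -1.92, -2.03 and -1.95. All BTBR mice were lower, 8.81-fold by the measured means (log2 -3.14 ± 0.14 SE, adjusted p = 1.25e-04), and the probe was well above background on 2 of the 3 BTBR arrays. At A_51_P439092, upstream on the same strand (chr9:120037589-120037648), BTBR read 4.60, 4.42 and 4.42 and C57BL/6J 4.10, 4.15 and 4.35. Here all BTBR mice were the higher ones, by 0.28, without passing the test (adjusted p = 0.314). With normexp the first probe differed by -1.65 (adjusted p = 0.105), and in the authors' deposited values by -0.89 (adjusted p = 2.38e-04).

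Rps6 is the small-subunit protein phosphorylated by S6 kinases downstream of mTOR. One of its 2 probes, A_52_P531325, was designed on a cDNA clone that the files name Rps6, at chr4:86483199-86483258. It read -4.16, -4.11 and -5.06 in C57BL/6J, where it was well above background on all 3 arrays, and -8.50, -7.88 and -8.85 in BTBR, where it was not well above background on any. Against the dimmest signal well above background on each BTBR array, C57BL/6J was at least 3.86-fold higher, a bound that was not tested. The limma test used the measured values (log2 difference -3.97, adjusted p = 0.00141), and the BTBR ones were not told apart from background. The probe met the entry rule through its C57BL/6J arrays alone, so its call adds no support of its own. The RefSeq probe of Rps6, upstream on the minus strand (chr4:86501886-86502077), read 3.76, 3.91 and 3.82 in BTBR and 3.76, 3.86 and 3.97 in C57BL/6J. These values overlapped, with a difference of -0.03 (adjusted p = 0.941), so the 2 probes filed under Rps6 did not behave alike. The called probe holds a stop codon in every reading frame. It is counted under Rps6 throughout by the files' name alone, and whether its RNA comes from the Rps6 gene was not tested. With normexp the first probe differed by -0.98 and the call was lost (adjusted p = 0.962), and in the authors' deposited values the difference was -0.37.

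Rps13 binds early to ribosomal RNA of the small subunit. Its probe A_51_P327469 (chr7:123475037-123475096), which ends in a polyadenylation signal, read 5.58, 5.72 and 5.58 in BTBR and 6.22, 6.21 and 6.37 in C57BL/6J. The strains were apart, and BTBR was 1.56-fold lower (log2 -0.64 ± 0.11 SE, adjusted p = 0.0214). A probe on a cDNA just upstream (chr7:123475113-123475172) read -1.25, -0.97 and -1.25 in BTBR and -1.42, -1.51 and -1.37 in C57BL/6J. At that probe every BTBR mouse was higher, by 0.28 (adjusted p = 0.329). Normexp ended the call (adjusted p = 0.41), as did 5 of the 6 fits that left out a mouse, all but that without BTBR 2 (adjusted p from 0.052 to 0.122 in the 5).

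Rps4y2, a copy of the small-subunit gene Rps4x, has 1 probe, spotted 10 times per array (chr6:148304018-148304077). It read 0.27, 0.46 and 0.26 in BTBR and 1.5, 1.32 and 1.66 in C57BL/6J. BTBR was lower in all mice, 2.24-fold (log2 -1.16 ± 0.13 SE, adjusted p = 0.00432). The 2 probes of Rps4x, the X-linked gene, differed by 0.08 and 0.18, with no call. With normexp the call was lost (log2 -1.03, adjusted p = 0.0647). Near-identical copies can share a probe's signal, and how far this probe hybridises to Rps4x RNA was not tested.

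**Figure D2:**
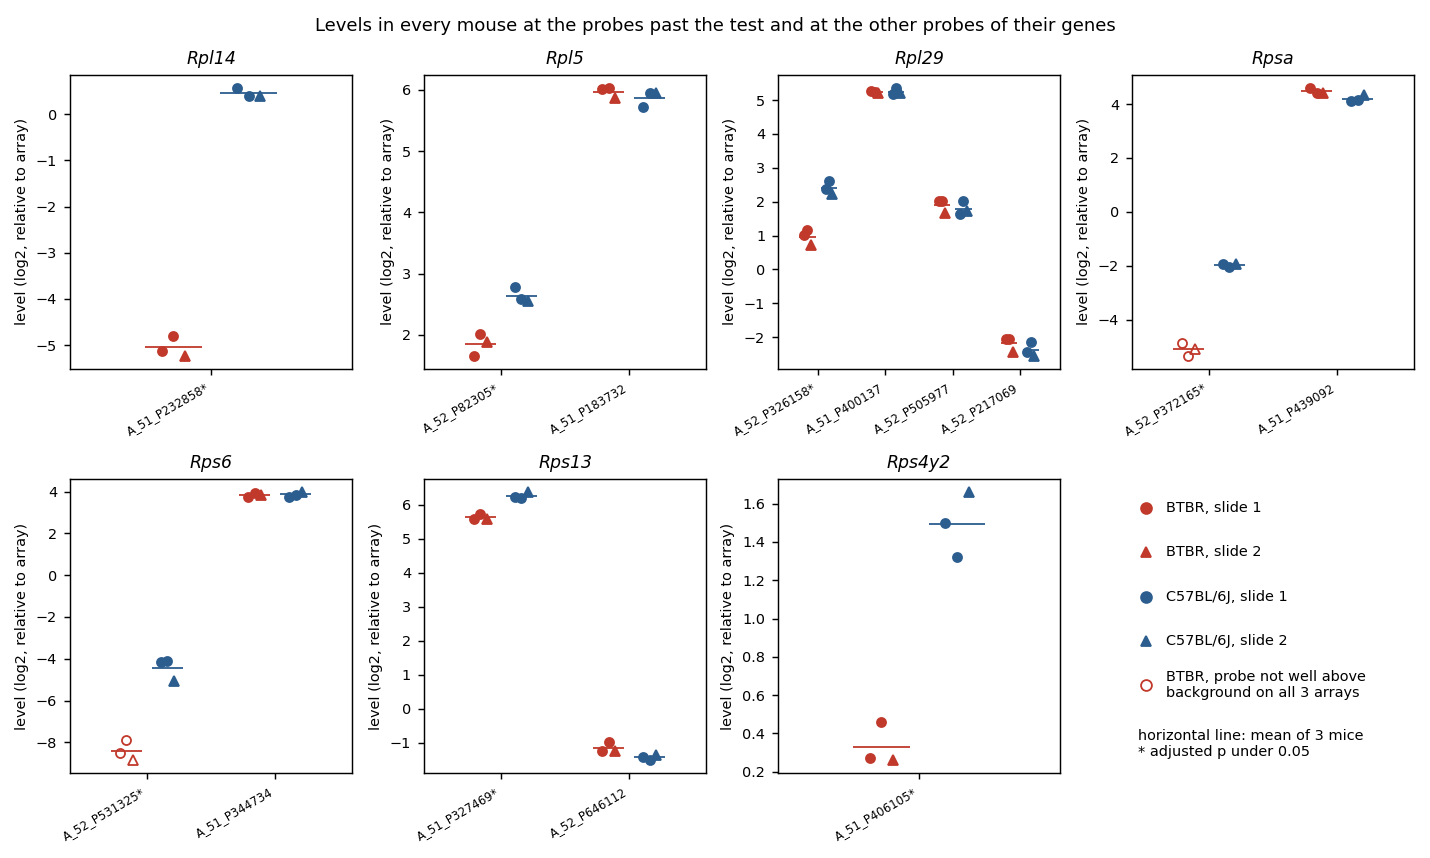
Level of each probe (y axis, log2 relative to the array's 75th percentile, a separate scale per gene) in the 3 BTBR (red) and 3 C57BL/6J (blue) mice, for the 7 genes with a probe past the test (asterisk) and all their other entered probes. Bars are means of 3 mice, circles slide 1, triangles slide 2, and hollow symbols a BTBR group with at least 1 array not well above background. The strains separate at the starred probes and lie together, or with BTBR slightly higher, at the others.

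The calls were also read within slides. Replicates 1 and 2 of each strain were on 1 slide and replicate 3 on another. With the slide as a block all 7 genes kept their calls. Within the first slide Rpl14, Rpl29, Rps4y2, Rps6 and Rpsa were called lower and Rps9 higher, while Rpl5 (adjusted p = 0.0627) and Rps13 (adjusted p = 0.0765) were not. On the second slide, with 1 mouse per strain and no test, the 7 differences ran from -5.63 (Rpl14) to -0.67 (Rpl5). At all 7 probes every BTBR mouse lay below every C57BL/6J mouse. The sign on this slide was therefore fixed in advance and is no separate check.

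Across the family, 45 genes had at least 2 entered probes, 102 probes in all. None of these 45 genes had every probe past the test. In 34 of them the probes' differences lay within 0.3 of each other, and the median gap between the lowest and highest probe was 0.12. In 5 genes (Rps6, Rpsa, Rpl29, Rps13 and Rpl5) 1 probe was called and the others were not. In 4 more, none of them called, probes had opposite signs with at least 0.3 between them, namely Rps20 (-0.47 and 0.26), Rps12 (-0.40 and 0.22), Rpl21 (-0.23 and 0.19) and Rps24 (-0.01, 0.17 and 0.35). Rps20 showed the contrast most clearly among these. Its Ensembl-designed probe read -2.01, -1.90 and -2.11 in BTBR against -1.30, -1.55 and -1.76 in C57BL/6J, all BTBR mice lower, while its RefSeq probe read 6.98, 7.09 and 6.78 against 6.59, 6.68 and 6.79. Whether RNA amount, transcript form or the strain's own sequence under a probe sets such a contrast was not tested.

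Several pairs of overlapping probes of a gene gave similar differences. The 2 probes of Rpl36 overlap by 39 bases, 2 of them unlike, and differed between strains by 0.12 and 0.13. A pair of Rpl36a probes that overlap by 40 bases differed by 0.08 and 0.10. The 2 probes of Rpl10, which overlap by 29 bases, 3 of them unlike, differed by 0.22 and 0.25. The Rpl29 pair that overlaps by 33 bases, 3 of them unlike, differed by 0.12 and 0.20. The 2 Rpl29 probes that share only 8 bases did not give similar differences (-0.02 and -1.44). Such probes share sequence and are not separate measurements of the gene.

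The called probes had some features that the choice of members did not use. All 7 were placed on the genome as an unbroken 60-base stretch, as were 96 of the entered members, of which 7.29% were called (5.60% of all entered probes so placed). The 40 entered members placed over a longer stretch, across a gap, had no call by limma and 3 with an unadjusted p under 0.05, against 4.26% called of all probes so placed. By target, 6 calls fell on the 122 probes designed on RefSeq transcripts (4.92%) and 1 on the 14 designed on a cDNA or EST. Of all entered probes, 5.07% of those on RefSeq transcripts and 6.72% of the others were called. These shares were not matched for level either. None of the 7 Ensembl-designed probes passed limma's test, with 3 of them at an unadjusted p under 0.05. By the files' positions chromosome 9 held 13 entered members, among them the Rps27 probe whose gene lies elsewhere, and 3 of the calls (23.1%), Rpl14, Rpl29 and Rpsa. Of all 1728 entered probes placed there, 6.89% were called.

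The called probes of Rpl14 and Rpsa lie within 1 Mb of each other. Of the 32 other probes entered within 1 Mb of the Rpl14 probe, 7 were called (21.9%), 3 higher and 4 lower, among them the Rpsa probe itself, Cx3cr1 and Mobp. Around the Rpsa probe 7 of 42 were called (16.7%), the Rpl14 probe among them. Around the Rpl29 probe 8 of 52 were called (15.4%), 5 higher and 3 lower, and around the called Rps6 probe 6 of 22 (27.3%), 2 higher and 4 lower. Near Rpl5, Rps13 and Rps4y2 the shares were 6.25%, 7.69% and 8.82%, against 5.44% over the whole array. Neighbouring probes can share a gene, so these counts describe places and not independent genes.

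Each called probe was most alike, over the 6 arrays, to others of the 7. For Rpl14 the closest members were Rpsa, Rps6 and Rps4y2, for Rpl29 they were Rps6, Rpl14 and Rpsa, and for Rps13 they were Rps4y2, Rpl14 and Rpsa. The 6 arrays fall into 2 strain clusters at all these probes, so the likeness adds nothing to the strain difference.

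Above 0, no member passed limma's adjusted test, and 7 had an unadjusted p under 0.05. With array weights 5 members were called higher, and with an intensity trend and robust prior 1, Rps9. The largest increases among probes measured on all 6 arrays were at an Ensembl-designed probe of Rps9, at Rpl3l, at an Ensembl-designed probe of Rpl27, at Rps21 and at a cDNA probe of Rpl11. Rps9, whose protein helps keep decoding accurate, read -1.06, -0.89 and -1.08 in BTBR and -1.83, -1.69 and -1.38 in C57BL/6J at that probe. All BTBR mice were higher, by 0.63 ± 0.15 SE, and the adjusted p was 0.0685. Its RefSeq probe gave 0.24. Rpl3l, the muscle form of Rpl3, was higher in every BTBR mouse by 0.46 (adjusted p = 0.182). The differences were 0.44 for the Rpl27 probe (adjusted p = 0.296), 0.42 for Rps21 (adjusted p = 0.619) and 0.41 for Rpl11, and at that Rps21 probe the strains overlapped. The other probes of these genes differed by 0.13 for Rpl27, 0.25 for Rps21 and 0.28 for Rpl11.

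The stalk of the large subunit recruits translation factors and is built of Rplp0, Rplp1 and Rplp2. Rplp1 read 7.46, 7.68 and 7.02 in BTBR and 7.0, 7.40 and 7.30 in C57BL/6J, a difference of 0.15 (adjusted p = 0.794) with overlapping strains. Rplp2 also overlapped, with a difference of 0.15 (adjusted p = 0.651). The 3 probes of Rplp0, a gene often used as a reference in expression work, differed by 0.07, -0.08 and -0.10, and none passed.

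Besides Rps4y2, 3 pairs of a gene and its paralogue were compared, Rpl22 with Rpl22l1, Rpl36a with Rpl36al and Rps27 with Rps27l. None of their 10 probes passed limma's test, and none had an unadjusted p under 0.05. Rpl22 differed by 0.09 and -0.08 at its 2 probes and its paralogue Rpl22l1 by 0.13 and 0.18. Rpl36a differed by 0.08 to 0.19 over 3 probes and Rpl36al by 0.22, and Rpl36al read 3.78, 3.77 and 3.82 in BTBR against 3.55, 3.64 and 3.55 in C57BL/6J. Although Rpl36al did not overlap between strains, its adjusted p was 0.336. Rps27 and its paralogue Rps27l differed by 0.17 and 0.13. The position the files give for the Rps27 probe lies on chromosome 9, another chromosome than the one RefSeq gives for the gene, and the same holds for the probe of Rps29. The 6 entered probes placed on the X chromosome, of 4 genes, were all higher in BTBR on average, by 0.08 to 0.22, and none was called by limma, with none at an unadjusted p under 0.05.

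Some members varied too much within a strain for any statement. Rpl30, at A_51_P268914, read 1.64, 2.46 and -0.02 in BTBR and 0.29, 2.14 and 1.35 in C57BL/6J. This spread (pooled SD 1.11) was far above the median of 0.12 over all members. The detected probe of Rpl39l had a pooled SD of 1.18.

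As a group, ribosomal protein probes lay slightly higher in BTBR, the small subunit more than the large. The median difference was 0.11 over 83 large-subunit probes and 0.16 over 60 small-subunit probes, against 0.04 over all 30011. The mean was higher in BTBR at 66 of the 83 large-subunit probes (79.5%) and 52 of the 60 small-subunit probes (86.7%), against 57.2% of all probes. The strains did not overlap, with BTBR higher, at 29 members (20.3%, against 11.9% of all probes), and with BTBR lower at 10 (6.99%, against 11%). Most members were bright, and bright probes of any gene leaned the same way. Of the 92 members with a mean level above 4, 22.8% were higher without overlap and 2.17% lower. Among all 1307 probes above that level these shares were 17.7% and 5.89%. The mean was higher in BTBR at 91.3% of these members and at 64.8% of all such probes. Among probes designed on RefSeq transcripts, the medians were 0.10 for 76 large-subunit probes and 0.16 for 46 small-subunit probes, against 0.02 for all such probes. Probes of 1 array share that array's scaling, so these counts are not counts of independent results.

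Seen mouse by mouse, this offset rested largely on 2 animals. The median deviation of large-subunit probes from their 6-mouse mean was 0.07, 0.13 and -0.06 in BTBR and -0.14, -0.01 and -0.01 in C57BL/6J. For the small subunit it was 0.09, 0.20 and -0.04 in BTBR and -0.16, -0.04 and -0.03 in C57BL/6J. BTBR 2 was the highest and C57BL/6J 1 the lowest for both subunits, and BTBR 3 lay among the C57BL/6J mice, so the strains overlapped. BTBR 2 had the highest value at 90 of the 143 members (62.9%, against 24.5% of all probes). C57BL/6J 1 had the lowest at 87 of the 143, and at 16.4% of all probes.

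The arrays of the same animals were the extremes in brightness. The 75th percentile of the signal, by which levels were scaled, was 918.8, 859.0 and 1183.6 in BTBR and 1606.7, 1243.5 and 1208.8 in C57BL/6J, dimmest for BTBR 2 and brightest for C57BL/6J 1. Its part in the offset was not tested. Without BTBR 2 and C57BL/6J 1 together, the medians fell to 0.02 for the large and 0.07 for the small subunit, against 0.04 over all probes. Without BTBR 2 alone they were 0.05 and 0.10, and without C57BL/6J 1 alone 0.06 and 0.12. Calls without both numbered 3, at Rpl14, Rpsa and Rps6. Within the first slide the medians were 0.18 and 0.25, and on the second, again with no test, they were -0.03 and -0.02.

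**Figure D3:**
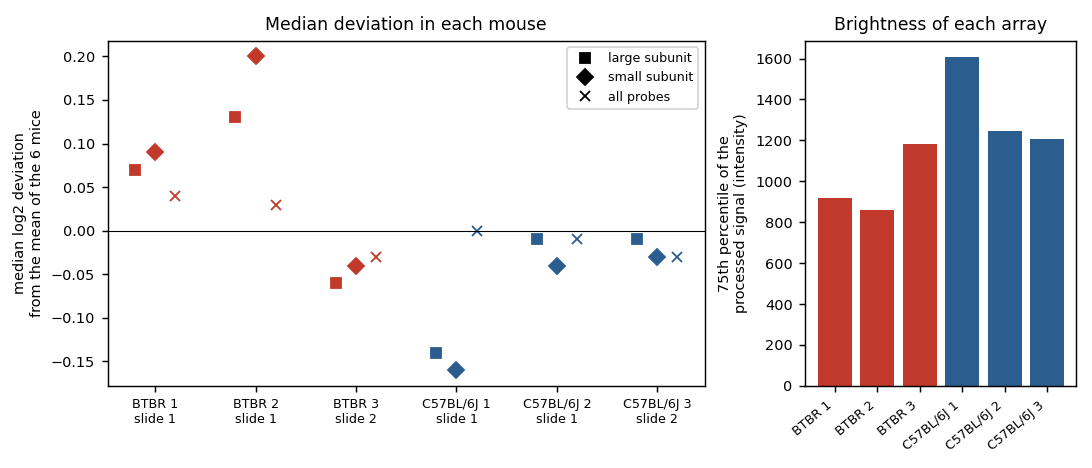
Left, the median log2 deviation of large-subunit (squares), small-subunit (diamonds) and all entered probes (crosses) from the mean of the 6 mice, for each mouse with its slide; right, the 75th percentile of the processed signal (intensity) of each array. BTBR is red and C57BL/6J blue. BTBR 2 has the highest ribosomal protein medians (0.13 and 0.20) and the dimmest array, and C57BL/6J 1 the lowest medians (-0.14 and -0.16) and the brightest array.

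Set against each other, the subunits differed by little. The large-subunit median minus the small-subunit median was -0.02, -0.07 and -0.02 in the BTBR mice and 0.02, 0.03 and 0.01 in the C57BL/6J mice. The strains did not overlap, but the difference between the subunits' medians was only -0.05 on the log2 scale. It was -0.01 on the second slide and -0.01 in the authors' deposited values. The plot of medians under each way of processing shows the small subunit above the large one throughout.

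**Figure D4:**
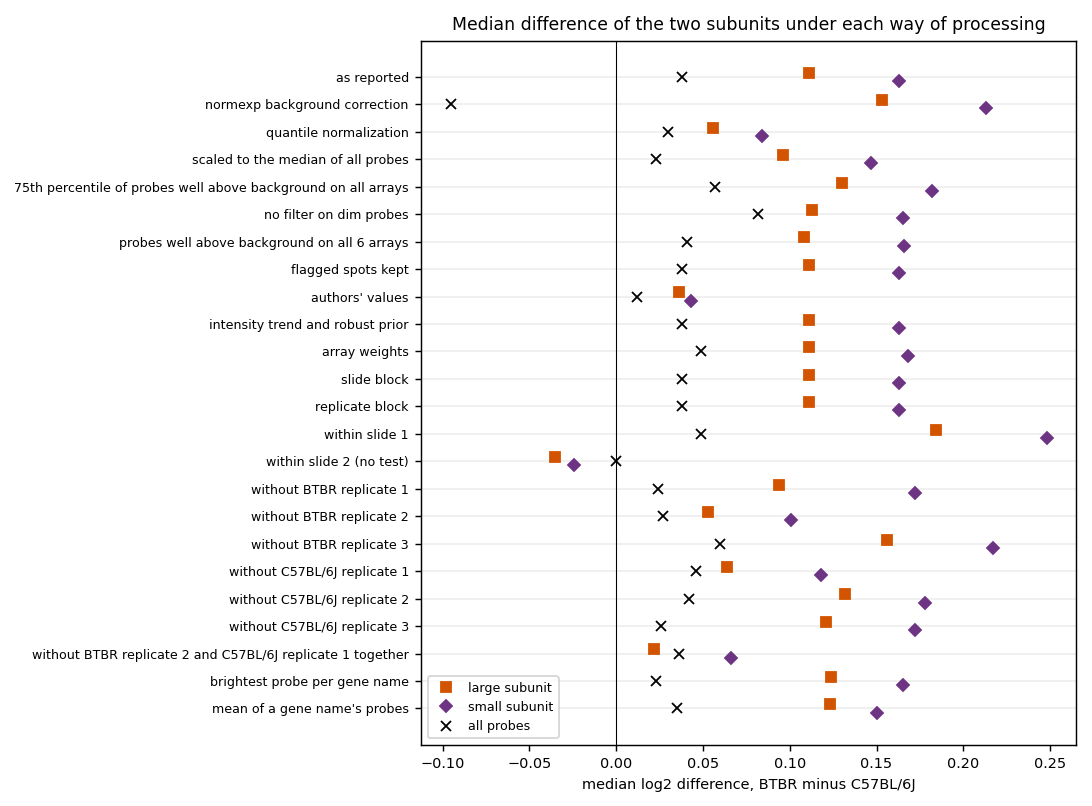
Median log2 difference (BTBR minus C57BL/6J, x axis) of large-subunit (squares), small-subunit (diamonds) and all probes (crosses) under each way of processing or subset of mice, 1 per row. The small-subunit median is at or above the large-subunit median in every row, and both medians are below 0 only within slide 2 (-0.03 and -0.02).

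The start of the genes was compared with the pyrimidine tract named above. RefSeq's promoter table (GRCm38.p6) held 64 of the 86 gene names. A tract was counted where the annotated first base is C and at least 4 bases that follow are C or T, on the gene's own strand. It was present in 13 of the 64 genes (20.3%) and in 3.01% of the 27025 genes of the table. Among the genes with calls, Rpl14 and Rps6 had it (capitals, from the first annotated base) and Rpsa, shown beside them, did not, nor did Rpl5 and Rps13. Rpl29 and Rps4y2 had no entry.
Rpl14, GRCm38.p6 chr9:120571507-120571531, plus strand: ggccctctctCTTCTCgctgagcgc
Rps6, GRCm38.p6 chr4:86857353-86857377, minus strand: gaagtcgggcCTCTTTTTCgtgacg
Rpsa, GRCm38.p6 chr9:120127756-120127780, plus strand: ttatttaaggacgtcatttccggcc
The 18 probes of genes with the tract at this base had a median difference of 0.12, and the 89 probes of genes without it 0.13. A missing match says only that these letters are not at this annotated base.

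Other genes of the ribosome's life cycle were counted by list, beside 5.44% called over all probes. Of 42 entered probes of other messenger RNAs with a pyrimidine tract, 1 was called, at Gas5, a host of small nucleolar RNAs, higher by 0.67 (adjusted p = 0.0422). The mean was higher in BTBR at 33 of the 42, with a median of 0.12, against 57.2% and 0.04 over all probes. None of 27 probes of elongation and release factors passed limma's test (2 at an unadjusted p under 0.05), and of 85 probes of initiation factors 1 passed, at Eif2a, lower by 0.77. None of the 37 probes of RNA polymerase I and the 46 of ribosome quality control passed limma's test, with 5 in each list at an unadjusted p under 0.05.

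Among 175 entered probes of ribosome assembly factors 4 passed (2.29%), 1 higher and 3 lower. Rrp7a, which acts in making the small subunit, read -4.28, -3.92 and -4.60 in BTBR and 3.02, 3.19 and 3.20 in C57BL/6J at 1 probe, a 169-fold difference (adjusted p = 2.81e-05). Its other probe differed by 0.01. Imp4 and Nip7, also assembly factors, were not well above background in any BTBR mouse at 1 probe each, with C57BL/6J at least 3.34-fold and 6.19-fold higher. These bounds were not tested. Both probes are among the 3 lower calls but entered through their C57BL/6J arrays alone, so their calls add no support of their own. The second Nip7 probe differed by 0.08 and did not pass. In the list of growth signalling to ribosome genes 2 of 57 probes passed, both lower in BTBR, at 1 of 2 probes of Mtor (-1.87, the other 0) and 1 of 5 probes of Larp1, which binds the tract (-0.85). Of 122 probes of mitochondrial ribosomal proteins, 3 were higher and 3 lower (4.92%), with a median of 0.01, and Mrpl3 was called in both directions, 0.62 at 1 probe and -1.82 at another.

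Markers of cell types were read beside these results, since in bulk tissue fewer cells of a type and less RNA per cell cannot be told apart. All 21 probes of excitatory neuron markers were well above background on all 6 arrays. Of 23 entered oligodendrocyte marker probes 8 were lower in BTBR (34.8%, against 5.44% over all probes) and none higher. The scaled signals of each list were also summed, on the linear scale and not as log2 levels, so the brightest probes weigh most. For oligodendrocytes the sum was 135 to 157 in BTBR and 182 to 228 in C57BL/6J, with 1 probe, of Ugt8a, undetected throughout. Of 18 microglia marker probes, all detected on all 6 arrays, 5 were called (27.8%). C1qb, C1qc and both probes of Trem2 were lower, by log2 differences of -1.11 to -0.63, and 1 of 2 probes of Cx3cr1, a gene within 1 Mb of the Rpl14 probe, was higher by 1.22. The summed microglia signal was 46.1 to 54.5 in BTBR and 52.4 to 63 in C57BL/6J, so the strains overlapped. Among 23 astrocyte marker probes 1 was called, of Gfap, with a difference of -1.21. The other Gfap probes differed by -0.57 and -0.46 and did not pass. The summed signal of blood markers was 116 in BTBR 2 and 43.4 to 55.9 in the others. That of choroid plexus markers was 13.2 in C57BL/6J 1 and 0.443 to 2.36 in the others. That of striatal markers was 255 in C57BL/6J 3 and 23.2 to 78.7 in the others. Bright probes of Hba-a1 (level 6.66 in BTBR 2) and Penk (level 7 in C57BL/6J 3) weigh heavily in the blood and striatal sums. Kl among the choroid plexus markers had an undetected probe. The part of these cells in the ribosomal protein levels was not tested.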

How the data were processed

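The deposited scanner files list intensity values spot by spot. The file headers name Agilent Feature Extraction 10.7.3.1 as the software, and the submitters' processing notes name version 9.1. The authors also deposited log2 values per probe with their scaling unstated, and these served as an alternative only. Here the processed signal, which is background-subtracted intensity, was put on the log2 scale, and the 75th percentile of all 41174 non-control probes on the array was subtracted. Spots flagged as outliers were dropped if a probe had further spots, and the spots left were averaged per probe. No member probe was saturated. Each array had 28100 to 30665 probes well above background. The 30011 probes that passed this on 3 or more of the 6 arrays were fitted with limma 3.58.1 in R 4.3.3 (lmFit, eBayes), adjusted by Benjamini-Hochberg over all of them, with data.table (version 1.17.8) for the tables. The fit was tested on simulated data.

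The 2 strains share replicate numbers. Deviations of same-numbered mice correlated at 0.0282, -0.17 and -0.0786, so the numbers were not taken to pair mice. The members and lists were chosen with earlier results of these data known, so no test was made over a list. Named were probes past the test, the 5 largest differences in each direction among probes measured on all 6 arrays, probes of genes whose probes differed in call or in sign by at least 0.3, the stalk genes and paralogue pairs, and up to 3 probes of each other list with the smallest p. Exons and untranslated regions of the probes were not used here. Some members are counted but not reported by name here.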

Additional observations from a re-analysis of the deposited data

How the results depend on the processing

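The Rpl14 difference kept its sign in all 22 and passed the test in all 21 alternatives that give one (log2 -5.63 to -2.94, adjusted p up to 0.00468). With normexp background correction the calls fell from 7 to 1, Rpl14, and over all probes from 1632 to 170 (44 higher, 126 lower), while the median of all probes moved from 0.038 to -0.095. Array weights gave 13 calls, 5 higher and 8 lower. Taking the brightest probe of each gene name left 3 calls and the mean of a gene's probes 4, both from fewer features. The small-subunit median was 0.043 in the authors' deposited values. The large minus small difference was -0.028 with quantile normalization, -0.007 in the authors' values, -0.027 with the mean of a gene's probes and -0.011 within slide 2, where the medians were -0.035 and -0.024. Leaving out BTBR 2 and C57BL/6J 1 together, chosen after seeing the data, gave 3 calls and medians of 0.022 and 0.066. Leaving out each mouse in turn gave 5 to 7 calls, large-subunit medians of 0.053 to 0.156, small-subunit medians of 0.101 to 0.217 and a large minus small difference of -0.078 to -0.045; the large-subunit median fell to 0.053 without BTBR 2 and 0.064 without C57BL/6J 1. With the replicate number as a block, 5 members were called (Rpl14, Rpl29, Rps4y2, Rps6 and Rpsa) and 922 of all probes, and the medians did not change. Rpl5 and Rps13 each passed in 11 of their alternatives (20 and 21). Where the cause of a change is not named, it was not tested. The called Rps6 and Rpsa probes were not well above background on all BTBR arrays, which limits their values. With normexp, which lifts low signals, their limma adjusted p were 0.962 and 0.105. Normexp also ended the call at the bright Rps13 probe (adjusted p = 0.41). It kept the call at Rpl14 (adjusted p = 0.00462), where the BTBR mean of -5.05 was close to the -5.11 of Rpsa. The part of dimness in these changes was not tested.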
